A study of Mus musculus with 10 samples.

Results

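The enzyme genes Akr1d1, Mgat4e and Sptlc2, the membrane protein genes Abca4, Ephb1, Kcnh8 and Tenm3, and the genes Epb41l4a, Prune2 and Vwa3b are the protein-coding genes nearest, by gene body, to the 10 SOX2 regions of highest rank in mouse embryonic stem cells. They are 10 of 21631 protein-coding genes, and their regions are 10 of 2369 SOX2 regions with a peak in both SOX2 libraries. The rank was the mean percentile of the deposited fold enrichment (a linear ratio over background, 1 value per peak) within each of the SOX2 lists. The genes were thus chosen by their SOX2 folds, which are given as a description and were not tested. The SOX15 lists did not enter the choice.

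SOX2 or SOX15 carried an HA tag at its own knocked-in locus, and the cells of every sample grew in 2i/LIF medium, which keeps embryonic stem cells in the naive state, with no further treatment named. Chromatin fixed with formaldehyde was precipitated, and peak lists of 2 SOX2 ChIP libraries and 3 SOX15 ChIP libraries were analysed, while values of the 5 input libraries were not analysed here. Clone and culture of each replicate are not given in the sources used here, so the spread between replicates may be technical. Cell identity could not be checked, since no expression was measured in these files. SOX2 replicate 1 had 2676 peaks and replicate 2 had 4817, whereas the SOX15 lists were shorter, with 217, 672 and 437 peaks in order of replicate. They give no read counts, so depth is unknown. Folds are comparable within a list only.

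SOX2 is an HMG-box factor that bends DNA at short sites and, together with OCT4 (the product of Pou5f1), occupies enhancers that keep embryonic stem cells pluripotent. SOX15 belongs to the same family. Enhancers often lie far from the gene they act on, and the nearest gene need not be the target. Abca4 encodes the transporter that clears retinoids in photoreceptors, Akr1d1 the steroid reductase of bile acid synthesis in liver, Kcnh8 a voltage-gated potassium channel, Ephb1 a receptor tyrosine kinase for ephrin-B ligands, and Tenm3 a teneurin, an adhesion protein of neural wiring. Sptlc2 encodes a subunit of serine palmitoyltransferase, the entry enzyme of sphingolipid synthesis, which all cells use. Mgat4e belongs to a family of N-glycan branching enzymes, and Epb41l4a encodes a FERM-domain protein of the band 4.1 family. Prune2 encodes a protein with a BCH domain, and Vwa3b one with a von Willebrand factor A domain.

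The 10 regions did not lie at listed gene starts. Summits were between 14.4 and 182 kb from the nearest start of a protein-coding gene in the 9 loci with a start in the table (median 99.98 kb), against a median of 46.9 kb over 2288 reproducible SOX2 regions. Of the 10 summits 7 lay inside the gene they were assigned to, against 45.1% of all reproducible SOX2 regions. Promoter windows ran from 250 bases before to 50 after a listed start. Starts came from the RefSeq annotation (GRCm38.p6, the assembly that mm10 takes its coordinates from) and covered 79.9% of protein-coding genes. None of the 49 peaks of any library in these 9 loci overlapped a window of a gene with a listed start. Over all reproducible SOX2 regions, 2.49% overlapped such a window. The gene table holds no exons, so exonic and intronic positions were not separated here.

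Promoters of 9 of the 10 genes were in the RefSeq table, Epb41l4a being the missing entry. They were searched on both strands for CATTGT, the core of a SOX site, and for ATGCAAAT, the octamer of OCT factors. A match of one can overlap a match of the other, since ACAATG, the complement of the first, and the octamer can share ATG. CATTGT was found in 2 of the 9, against 11.0% of 21263 promoters of protein-coding genes, and ATGCAAAT in 0 of 9, against 1.66%. Both promoters with the SOX letters are shown for the contrast with the peak lists, which hold no peak there. The 250 bases before the start are printed 5′ to 3′ on the gene's strand, with CATTGT (here read as its complement) in capitals, for Akr1d1 (chr6:37529923-37530172, plus strand, match from base -186) and Ephb1 (chr9:102354694-102354943, minus strand, match from base -132), build GRCm38.p6. A match is a run of letters and not evidence of a bound site.
Akr1d1: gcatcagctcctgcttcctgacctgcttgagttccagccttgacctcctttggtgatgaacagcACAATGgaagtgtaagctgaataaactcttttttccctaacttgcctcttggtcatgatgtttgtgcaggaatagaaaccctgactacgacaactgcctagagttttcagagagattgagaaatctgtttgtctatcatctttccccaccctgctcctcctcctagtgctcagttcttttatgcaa
Ephb1: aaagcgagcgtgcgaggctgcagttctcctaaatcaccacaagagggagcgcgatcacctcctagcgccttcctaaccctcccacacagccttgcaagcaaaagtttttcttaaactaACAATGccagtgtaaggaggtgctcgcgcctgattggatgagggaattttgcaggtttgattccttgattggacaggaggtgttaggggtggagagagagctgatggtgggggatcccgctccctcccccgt

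Abca4 held the region of rank 1. The gene spans chromosome 3 from 122043891 to 122180070 (mm10), and the region (122145268 to 122145901) lies inside it, 101 kb downstream of the start. The deposited fold was 60.6 and 47.3 in SOX2 replicates 1 and 2, place 1 of 2676 peaks in the first list and a shared place 5 in the other. SOX15 replicate 3 had a peak of fold 6.17 there, and SOX15 replicates 1 and 2 had none. The next reproducible SOX2 region of the locus, 146 kb away (122291890 to 122292239), had folds of 9.03 and 10.9. Here 1 protein-coding start was closer to the strongest summit than that of Abca4: Gclm, a subunit gene of glutathione synthesis, at 99.98 kb. The starts of Gclm and Abca4 were thus almost equally far away.

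Vwa3b had its region outside the gene. The gene lies on chromosome 1 from 37029158 to 37187608, and the region (36985659 to 36986305) is 43.3 kb upstream of its start and 46.5 kb upstream of Tmem131, which runs the other way. Folds were 46.2 and 59.5 in SOX2 replicates 1 and 2, and 10.2 in SOX15 replicate 3. A further SOX2 region only 1.98 kb away had folds of 5.23 and 7.63 and ranked 2179 of 2369, near the bottom of the list.

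The region assigned to Akr1d1 (chromosome 6, gene from 37529978 to 37574921) lay farthest from its gene body. It spans 37689507 to 37690266, 115 kb beyond the 3′ end and 160 kb from the start. Trim24, which encodes a bromodomain co-regulator that limits p53 and stands in the list of pluripotency-related genes, has its start at 181 kb on the other side, and the lncRNA gene Gm38791 starts at 24.7 kb. Folds were 39.6 and 61.0 for SOX2, and 12.8 in SOX15 replicate 3, the highest SOX15 fold of the 10 regions. SOX2 replicate 2 put this region at place 2 of its list and replicate 1 at place 11. A second region, 31.6 kb nearer to Akr1d1, had folds of 6.16 and 16.0. The strongest summit lies near the edge of the 120 kb window around the gene, and measured from the summit itself 3 other reproducible SOX2 regions lay within 120 kb, the most among the 10 genes.

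In Sptlc2 (chromosome 12, 87305058 to 87388355, minus strand) the region (87317765 to 87318504) sits toward the 3′ end, 70.2 kb from the start. Here 3 other protein-coding genes have closer starts, namely Ism2 at 18.5 kb, the HSP90 co-chaperone gene Ahsa1 at 51.4 kb and Vipas39 at 51.9 kb. The SOX2 folds were 42.7 and 40.9, and SOX15 replicate 3 had 11.1. No second reproducible SOX2 region lay in the locus. A peak of SOX2 replicate 2 alone, fold 5.02, lay inside Ism2.

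Prune2 (chromosome 19, 16955668 to 17223963) carried its region (17138023 to 17138650) inside the gene, 182 kb downstream of the start. That start was still the nearest of those listed. Folds were 36.6 and 53.0 for SOX2, and no SOX15 library had a peak on the region. The second region, 91.2 kb closer to the start, had 8.29 in both SOX2 libraries. A peak of SOX15 replicate 2 alone (fold 4.25) lay 42.1 kb beyond the gene's 3′ end, where no SOX2 library had a peak.

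The region assigned to Mgat4e lay just outside the gene. Mgat4e spans chromosome 1 from 134540941 to 134561746 on the minus strand, with its listed start at 134549682, inside the annotated gene. The region (134534910 to 134535486) is 5.70 kb beyond the gene's 3′ end and 14.4 kb from that start. Folds were 34.7 and 47.3 for SOX2, and 7.90 in SOX15 replicate 3. The locus held 2 more reproducible regions, with folds of 9.27 and 12.2 and of 5.52 and 5.14, and both lay inside the neighbour Kdm5b. Kdm5b encodes a histone H3K4 demethylase, and its start was 24.9 kb from the strongest summit, farther than the listed start of Mgat4e. The upper end of Mgat4e (134561746) lies beyond the Kdm5b start (134560178), so measured to that end Kdm5b would be closer. Kdm5b is not on the list of pluripotency-related genes and is named after its values were seen.

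Kcnh8 (chromosome 17, 52602709 to 52979194) stood alone. The region (52728686 to 52729287) lies inside the gene, 126 kb downstream of the start. The nearest other listed protein-coding start, that of Rab5a, was 750 kb away. No SOX2 library had another peak in the locus. The region had SOX2 folds of 42.5 and 36.9 and a SOX15 replicate 3 fold of 6.15.

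Ephb1 and Tenm3 are long genes that each hold their strongest region. In Ephb1 (chromosome 9, 101922128 to 102354693, minus strand) the region (102205436 to 102205941) lies 149 kb from the start, with SOX2 folds of 37.7 and 37.9 and a SOX15 replicate 3 fold of 8.12. A second region 56.5 kb nearer to the start had folds of 13.8 and 18.8 and ranked 350, the highest rank among second regions of the 10 loci. The lncRNA gene Gm31233 starts 4.65 kb from the strongest summit, and the next listed protein-coding start, that of Ky, is 300 kb away. Tenm3 spans chromosome 8 from 48225665 to 49522824 (1297 kb) in the table, with its listed start at 48674690 on the minus strand. The region (48751716 to 48752387) is thus 77.3 kb upstream of that start while inside the annotated gene. Its SOX2 folds were 40.2 and 35.8, and its SOX15 replicate 3 fold of 4.18 was the lowest of the 10 loci. The only other reproducible region of the locus lay outside the gene, beyond its 3′ end and 573 kb from the strongest one, with folds of 11.7 and 17.0. A further peak inside Tenm3 was called in SOX2 replicate 2 alone, with a fold of 9.70.

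Epb41l4a (chromosome 18, 33796327 to 34007484) combined a SOX2 region without SOX15 and SOX15 peaks elsewhere in the locus. The SOX2 region (33835710 to 33836442) lies inside the gene, 39.8 kb from its lower end (the one of smaller coordinate), with folds of 35.2 and 40.1. No SOX15 library had a peak on it. At the lower gene end each of the 3 SOX15 libraries had a peak. Replicates 1 and 2 shared a region just inside the gene (33796899 to 33797417) with folds of 6.31 and 5.41, which ranked 166 of 200 SOX15 regions called in at least 2 libraries. It was the only such SOX15 region in the 10 loci, against 3.89% of protein-coding genes that had one in the gene or within 120 kb. Replicate 3 had a peak of fold 4.60 at 0.336 kb outside the gene, and replicate 1 another of 4.26 at 1.36 kb. SOX2 replicate 1 alone had a peak of 6.14 at that last place. The peaks outside the gene overlapped Epb41l4aos, an lncRNA gene (33794892 to 33795989) that holds the snoRNA gene Gm23639 (33795164 to 33795295).

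**Figure D1:**
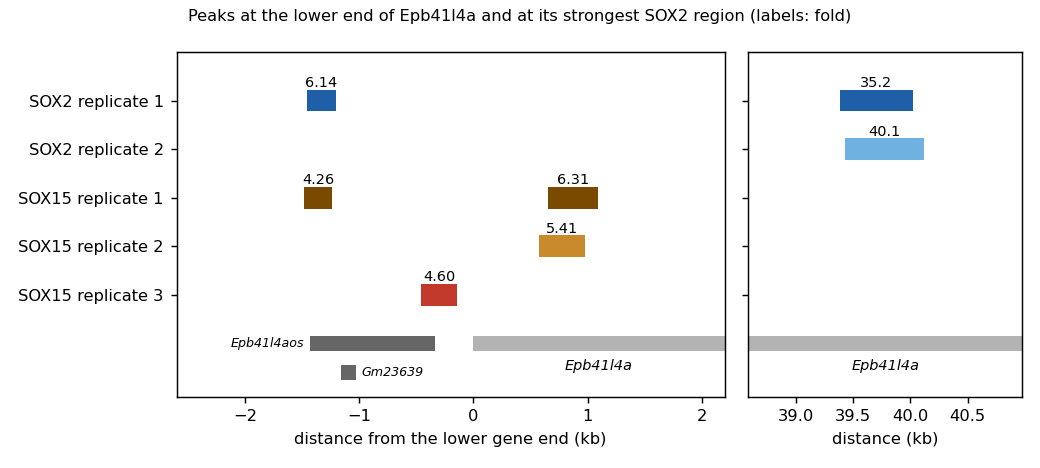
Peaks by library (rows) at the lower end of Epb41l4a (left) and at its strongest SOX2 region (right), with distance from the lower gene end in kb on the x axes, peak intervals as bars labelled with the deposited fold, and genes as grey bars. The SOX15 peaks (folds 4.26 to 6.31) lie at or close to the gene end, and the bars of 35.2 and 40.1 on the right belong to SOX2 alone.

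Across the 10 strongest regions the SOX2 folds ranged from 34.7 to 60.6 (median 39.9) in replicate 1 and from 35.8 to 61.0 (median 44.1) in replicate 2, where the median peak of the lists had 8.31 in each. Summits of the replicates lay 2 to 33 bp apart (median 14.5 bp), against a median of 22.0 bp over all reproducible regions, and the merged regions were 506 to 760 bp wide (median 640.5, against 409 bp). Width and fold come from the same libraries as the rank, so these values describe the choice.

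**Figure D2:**
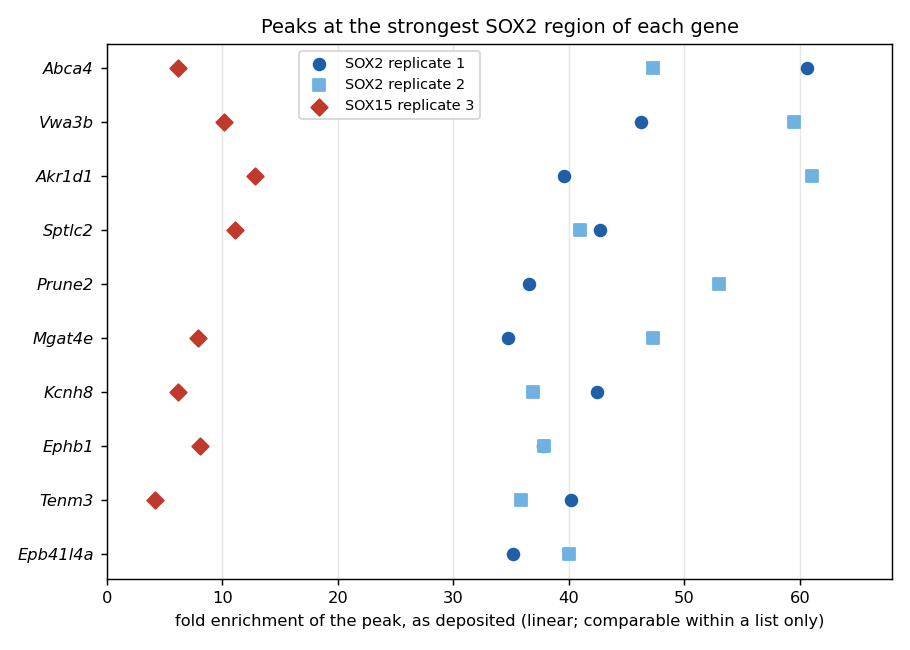
Deposited fold enrichment (x axis, linear, comparable within a list only) of each library's peak at the strongest SOX2 region of the 10 genes (rows, in order of rank); each marker is 1 library. SOX2 folds lie between 34.7 and 61.0, with overlapping markers at Ephb1; SOX15 replicate 3 has a marker at 8 genes, between 4.18 and 12.8, and the other SOX15 libraries have none.

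The membership of the lower ranks was close. Rank 10 (Epb41l4a) had a mean percentile of 99.45 and folds of 35.2 and 40.1, and rank 11, inside the naive pluripotency gene Esrrb, had 99.38 and folds of 38.1 and 35.6. Ranks 12 to 15 were nearest to Ifitm2 (31.5 and 64.5), Fryl (44.3 and 33.95), Vwc2 (35.2 and 37.0) and Sars (32.2 and 44.9). Under 4 other rankings of the same regions (mean fold, −log10 q, and either SOX2 replicate alone), Abca4 and Vwa3b stayed among the first 10 in all 4, Sptlc2 and Mgat4e in 3, Akr1d1, Prune2, Kcnh8 and Tenm3 in 2, and Ephb1 and Epb41l4a in 0.

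Each locus was then read as a whole, with every peak whose summit lay in the gene or within 120 kb of it. The 10 loci held 60 peaks, 22 and 25 of SOX2 replicates 1 and 2, and 2, 2 and 9 of SOX15 replicates 1, 2 and 3. Both SOX2 libraries had a peak at all 10 genes by choice (27.3% and 41.2% of all protein-coding genes). SOX15 replicates 1, 2 and 3 had one at 1, 2 and 9 of the 10, against 3.96%, 10.4% and 7.53% of all protein-coding genes, all within 120 kb or in the gene. These shares are not like for like. The 10 genes are long (median 185 kb, against 17.3 kb over all protein-coding genes) and were chosen to hold a strong SOX2 region. At 8 of them a replicate 3 peak lay on that region. SOX2 peaks formed 19 reproducible regions, the 10 strongest and 9 more, which were spread over 8 genes; Sptlc2 and Kcnh8 had none besides the strongest. Over all protein-coding genes 25.2% had a reproducible SOX2 region in such a window, and the loci of the 10 genes hold one by choice. Peaks other than the strongest had folds of 5.23 to 13.8 in replicate 1 and 4.96 to 18.8 in replicate 2, and the choice of the strongest regions fixes that these are lower. Within a library, the strongest fold was 2.01 to 8.84 times that of the second region, the smallest ratio being at Ephb1 and the largest at Vwa3b. A further 9 SOX2 peaks were called in 1 library alone (3 in replicate 1 and 6 in replicate 2), with folds of 4.96 to 9.70.

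**Figure D3:**
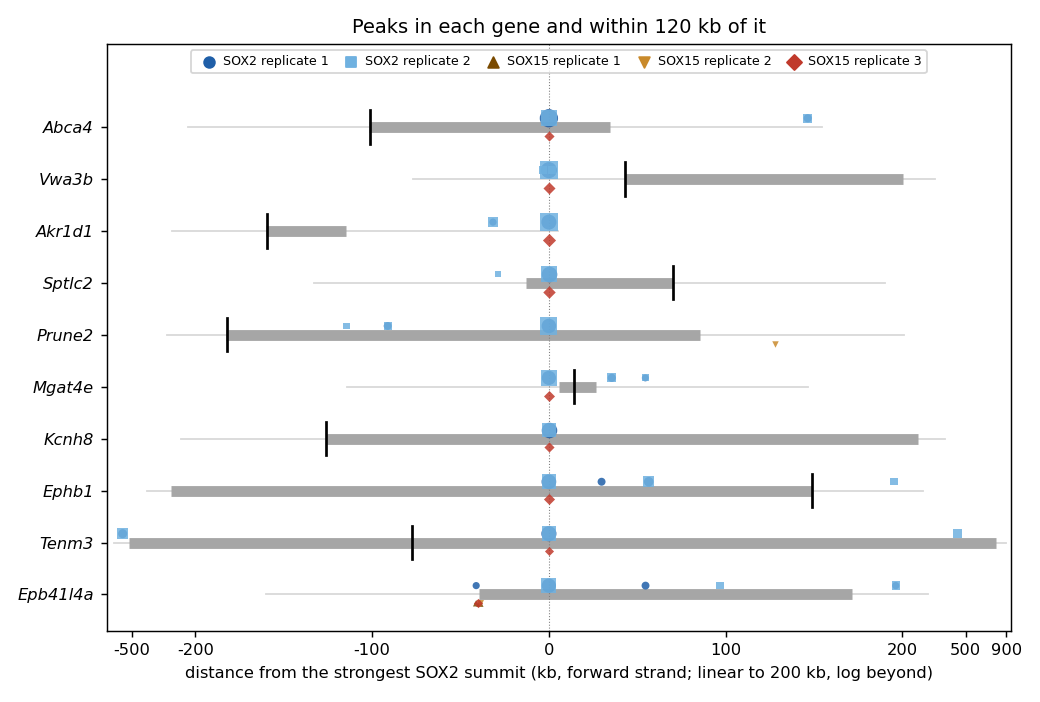
Peaks in the 10 loci (rows) by distance from the strongest SOX2 summit in kb (x axis, linear to 200 kb and logarithmic beyond); thick grey bars are genes, thin lines the 120 kb windows, black ticks the listed starts (none for Epb41l4a), and marker area grows with the deposited fold. At 8 genes SOX15 replicate 3 sits at the zero line, and the other SOX2 peaks are small beside the strongest ones.

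Measured around the summit, 5 of the 10 strongest regions had another reproducible SOX2 region within 120 kb, against 39.0% of all reproducible regions, a share near the background. The genes themselves were long, with a median of 185 kb. The median was 17.3 kb over all protein-coding genes and 66.2 kb over the genes nearest to a reproducible SOX2 region. Assignment by gene body thus reached far: the Tenm3 window alone covered 1537 kb.

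SOX15 peaks at the strongest regions came from 1 library. Replicate 3 had a peak at 8 of the 10 (80%, Wilson 95% interval 49.0 to 94.3, counting error alone), all but Prune2 and Epb41l4a, against 7.81% of all 2369 reproducible SOX2 regions. Replicates 1 and 2 had a peak at 0 of the 10 each (upper bound 27.8%), against 3.04% and 3.00% of all regions, so at this number of regions no difference from the background was detectable for them. With any of the 3 libraries the share was 8 of 10 against 8.02%, and without replicate 3 the count fell from 8 to 0. Within the list of replicate 3 the 8 folds had a median of 8.01, and 5 of the 8 exceeded the list's median of 6.41. Their −log10 q ran from 4.20 at Tenm3 to 21.0 at Akr1d1. The replicate 3 list reaches down to 1.31, below the minimum of 2.76 and 2.03 in the other SOX15 lists, and all 8 peaks lay above those minima.

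Positions of the factors coincided closely where both were called. The SOX15 summit lay 1 to 45 bp from the nearer SOX2 summit at the 8 regions (median 9 bp), against a median of 23.0 bp over the 185 reproducible SOX2 regions with a replicate 3 peak. The order of SOX15 folds matched that of neither SOX2 list throughout. Akr1d1 (12.8), Sptlc2 (11.1) and Vwa3b (10.2) led, ahead of Ephb1 (8.12) and Mgat4e (7.90). Abca4 with the highest SOX2 rank had 6.17, next to Kcnh8 (6.15) and above Tenm3 (4.18). In SOX2 replicate 2 Akr1d1 was likewise highest of the 8 (61.0), and Kcnh8 (36.9) and Tenm3 (35.8) were lowest. In SOX2 replicate 1 Abca4 was highest (60.6) and Mgat4e lowest (34.7). The SOX15 folds are single values of 1 library, and neighbours in their order cannot be told apart. None of the 9 further reproducible SOX2 regions in the loci had a peak of any SOX15 library. Of the other 5 SOX15 peaks in the loci 4 were at the end of Epb41l4a and 1 beyond Prune2.

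The share with a replicate 3 peak declined with SOX2 rank and was not peculiar to the 10 genes. It was 7 of 10 for ranks 11 to 20, 13 of 30 (43.3%) for ranks 21 to 50, 25 of 50 for ranks 51 to 100, 24.1% for ranks 101 to 237, 9.28% for ranks 238 to 474, 5.70% for ranks 475 to 948 and 3.52% for the rest. The intervals of the first 4 groups overlap. SOX15 replicates 1 and 2 had no peak on ranks 1 to 20 and 2 each on ranks 21 to 50, and stayed between 2.11% and 8% in every later group. At ranks 11 to 20 replicate 3 had peaks near Esrrb (6.43), Ifitm2 (10.2), Fryl (9.15), Sars (5.86), Pou5f1 (11.8), Olfr761 (6.73) and Il6st (5.96), and none near Vwc2, Rif1 and Pik3c3. These folds, 5.86 to 11.8, lie inside the range of the 8 genes described, 4.18 to 12.8.

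**Figure D4:**
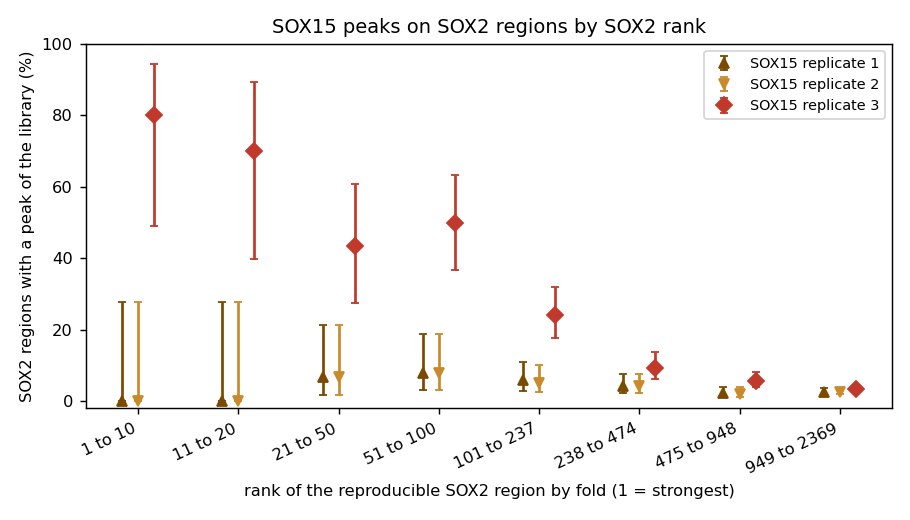
Percentage of reproducible SOX2 regions with a peak of each SOX15 library (y axis), by rank group of the SOX2 region (x axis, 1 is the strongest); bars are Wilson 95% intervals, which cover counting error alone. Replicate 3 is at 80% for ranks 1 to 10 and 3.52% for the last group, while replicates 1 and 2 stay at 8% or less in every group.

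No pluripotency-related neighbour lay closer to a strongest summit than the start of the gene it was assigned to (0 of 10). The share over all reproducible SOX2 regions is not given here, so this count does not set the 10 regions apart from the others. The list was written by hand and is broad. It held 111 genes, 32 of them core or naive pluripotency genes. None of those 32 lay within 500 kb of a summit, measured to the gene body, and 3 of the others did: Trim24 at 181 kb from the Akr1d1 region, the adaptor protein gene Bcar3 at 274 kb from the Abca4 region, and Apc, a scaffold of the complex that destroys β-catenin, at 384 kb from the Epb41l4a region. The nearest listed genes elsewhere were Esrrb at 797 kb from the Sptlc2 region and Satb1, a chromatin organiser, at 896 kb from the Kcnh8 region. For Vwa3b, Mgat4e, Ephb1 and Tenm3 they were 2090 to 19808 kb away, and the chromosome of Prune2 held none. Ranks 11, 16, 17 and 19 were nearest, by gene body, to Esrrb, Rif1, Pou5f1 and Il6st, the last encoding the gp130 receptor of LIF signalling. Ranks 12 to 15, 18 and 20 were nearest to Ifitm2, Fryl, Vwc2, Sars, Olfr761 and Pik3c3. Being the nearest gene is another measure than the count of 0 of 10, which concerns neighbours of the assigned gene. The ranks are therefore not compared in this respect.

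The start nearest to the strongest summit belonged to the assigned gene at 7 of the 9 loci with starts, against 85.2% of all reproducible regions whose gene has a start entry. The exceptions were Abca4 (Gclm) and Sptlc2 (Ism2). At Mgat4e and Tenm3 the listed start lies inside the annotated gene. Measured to the outer 5′ end of these genes, the nearest other protein-coding start (Kdm5b and Dctd) would be closer, so their order depends on the start listed. At 6 genes (Akr1d1, Prune2, Kcnh8, Ephb1, Tenm3 and, by gene ends, Epb41l4a) the nearest other protein-coding start was more than 120 kb away. With lncRNA and other genes counted, another start was closer at 5 genes. At Epb41l4a the nearer gene end stood for the unknown start, so a closer start could be missed there. At the other loci only listed starts were measured, which cover 79.9% of protein-coding genes. A closer start of an unlisted gene could thus be missed at these loci too. Shares over all reproducible SOX2 regions are not given here for the counts of 6 and 5 genes, which are a description of these loci.

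**Figure D5:**
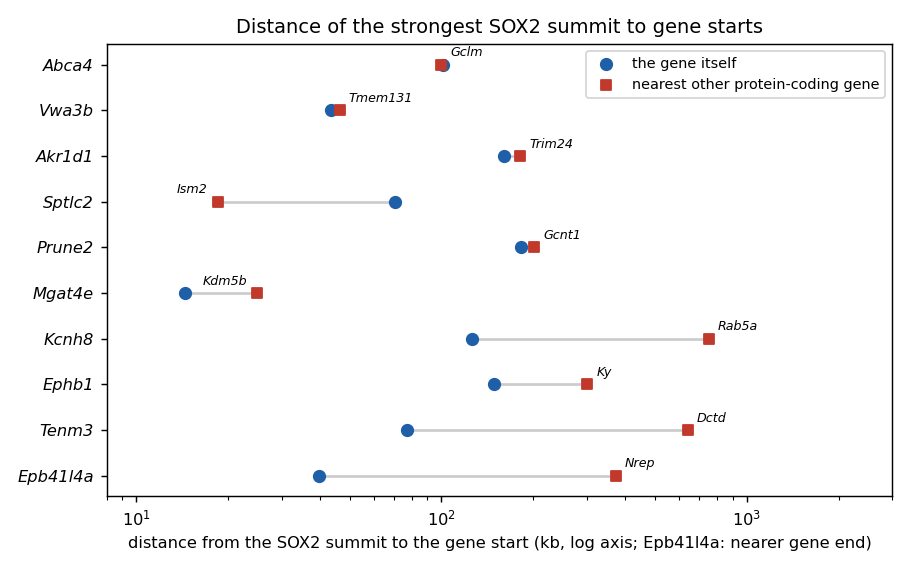
Distance in kb (x axis, log scale) from the strongest SOX2 summit to the start of the assigned gene (blue circles) and to the nearest start of another protein-coding gene (red squares, named), for the 10 genes (rows); for Epb41l4a the nearer gene end stands for the start. The red square lies left of the circle at Sptlc2 (18.5 against 70.2 kb) and, barely, at Abca4 (99.98 against 101 kb).

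Relatives of the 10 genes were read in the same windows. Of 97 paralogs and pathway partners, 37 (38.1%) had a reproducible SOX2 region in the gene or within 120 kb, against 25.2% of protein-coding genes. These windows grow with gene length, and the background was not matched to the relatives in length. Among relatives with a region, Vwa1 has 6.20 kb and Tenm1 901 kb, where the median protein-coding gene has 17.3 kb. The shares are thus not like for like. Some neighbours shared a region, so the highest-ranked region of each gene gave 33 distinct regions. With any region counted, 8 genes (8.25%, against 4.17% of protein-coding genes) had one in the gene body. For 7 genes the highest-ranked region lay there. The ranks of the highest-ranked regions ran from 227 to 2126, and ranks 1 to 10 belong to the 10 genes by choice. The band 4.1 family had 5 of 6 (Epb41, Epb41l1, Epb41l2, Epb41l4b and Epb41l5), with 16.0 and 18.2 near Epb41l4b as its highest folds. Aldo-keto reductases had 8 of 12, through regions shared by Akr1b7, Akr1b8 and Akr1b10 and by Akr1c13, Akr1c14 and Akr1c18.

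Ephrin receptors and ligands had 5 of 21 (Ephb2, Epha1, Epha4, Epha7 and Efnb3). Ephb2, whose region is nearest to Kdm1a, had folds of 11.5 and 26.4, and Epha4 had 4 regions, the highest with 10.3 and 21.6. Sphingolipid synthesis had 6 of 13 (Sptlc1, Sptssa, Sptssb, Cers5, Cers6 and Degs1). Near Sptssa, a small subunit of the same enzyme as Sptlc2, the region 40.3 kb away had SOX2 folds of 27.8 and 15.4 and SOX15 folds of 48.7, 38.5 and 19.6. It was the only one of these regions with a peak in all 3 SOX15 libraries, and its nearest gene was Eapp. Teneurins and their latrophilin partners had 3 of 6 (Tenm1, Tenm4 and Adgrl3), relatives of Vwa3b 5 of 8, ABCA transporters 2 of 11 (Abca1 and Abca13), N-glycan branching enzymes 2 of 9 (Mgat3 and Mgat5b), KCNH channels 1 of 7 (Kcnh1) and relatives of Prune2 0 of 4.

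Regions most alike to those of the 10 genes were sought among all other reproducible SOX2 regions. Likeness was the Euclidean distance over the 5 libraries in log2(fold + 1), with 0 where a library had no peak. It uses the SOX2 folds that set the rank, so matches of nearby rank (11 to 25) follow in part from the choice. The region in Esrrb was the closest match for Kcnh8 (distance 0.17), Ephb1 (0.31) and Abca4 (0.77), and that near Ifitm2 for Akr1d1 (0.45) and Vwa3b (0.55). Vwc2, without a SOX15 peak, matched Epb41l4a (0.11) and Prune2 (0.51). Fryl matched Sptlc2 (0.37), Olfr761 matched Mgat4e (0.30) and Gm6871 matched Tenm3 (0.35).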

How the data were processed

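Each sample's title gave its group and its replicate number. Per the submitters' processing notes, Bowtie2, MACS2 and deepTools were used with mm10; their versions and the role of the inputs in peak calling are not given in those notes. The authors called peaks library by library. Per peak they deposited 4 values: the fold enrichment (linear ratio), −log10 of p, −log10 of q and a whole-number score. All folds printed are the authors'.

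Overlapping SOX2 peaks (1 bp or more) formed a region, reproducible if both libraries contributed, with the mean of both summits as its summit. RefSeq (GRCm38.p6) gave gene ends, and its promoter table gave starts and strand for 79.9% of the 21631 protein-coding genes and for 9 of the 10 genes described; on chromosome 18 the nearer gene end replaced the start. Lookup found 111 of 111 pluripotency-related genes and 97 of 97 paralogs. By a written rule the text names the 10 genes, their closer protein-coding neighbours, listed genes within 500 kb, the next 5 ranks, the most alike regions and paralogs with a region. Genes named outside it, chosen after their values were seen, are those of ranks 16 to 20, the nearest listed genes beyond 500 kb, and neighbours that are not closer or not protein-coding (such as Kdm5b, Tmem131, Rab5a and Ky). These genes and lists were chosen with earlier results of these data known. No test was run: the rule used the SOX2 folds, and counts of SOX15 peaks are given beside their background as a description. A planned motif search at the summits needed genome sequence, which was not used here, and promoters were searched in its place, a choice made after seeing the data. Merging and distances were tested on simulated data. Software was Python 3.11.15 with pandas 2.3.3, numpy 2.4.6, matplotlib 3.10.9 and scipy 1.17.1.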

Additional observations from a re-analysis of the deposited data

How the results depend on the processing

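Without read counts, sites below the calling threshold cannot be seen, so absent peaks do not show absent binding. The 19 reproducible SOX2 regions of the 10 loci became 9 in gene bodies alone, ran from 16 to 23 with windows of 50 and 250 kb, −log10 q of at least 5 or 10 and other overlap rules, and with 1 SOX2 library left out, where each peak of the remaining library counts as a region and none can be reproducible, the count was 22 to 25. The 8 genes with a SOX15 peak on the strongest region became 5 at −log10 q of at least 10, and 0 to 8 with 1 SOX15 library left out, 0 being without replicate 3; the share of all reproducible SOX2 regions went from 8.02% to 6.73% and 4.32% at −log10 q of at least 5 and 10, and to 3.17% to 7.98% with 1 SOX15 library left out. By the listed starts, another start was closer at 2 genes, at 5 with all genes counted, and at 0 by gene body, which is how the genes were assigned. Of the 10 genes 5 remained among the first 10 ranked by −log10 q, and 5 to 5 with either SOX2 library left out. The 37 paralogs became 8 in gene bodies and 21 within 50 kb (21.6%, against 14.2% of protein-coding genes). Within 250 kb they were 48 (49.5%, against 40.5%). Gene length was not matched in these shares. No paired analysis was possible because no model was fitted: replicate numbers shared by the SOX2 and SOX15 groups cannot enter a count of peaks.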

Other observations

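In SOX2 replicate 2 the peaks at the strongest regions of Abca4 and Mgat4e carry the same deposited fold (47.3) and the same −log10 q (253), so they share place 5 of that list although they lie on different chromosomes. Equal folds are common in these lists: 1784 of 2676 peaks of SOX2 replicate 1 and 3628 of 4817 peaks of replicate 2 share their value with at least 1 other peak.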
